A study of Mus musculus with 6 samples.

Results

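The collagen genes are the mouse genes whose products fold into triple helices of the extracellular matrix, or of the cell surface where the chain spans the membrane. They were taken from the deposited array values as every gene with a symbol of the form Col, number, a, number. This gave 44 of the 22180 genes measured, and the RefSeq gene table of assembly GRCm38.p6 held the same number of symbols of this form. They were sorted by protein type into 11 fibrillar chains, 6 type IV chains of the basement membrane network, 2 multiplexins of the basement membrane zone, 1 anchoring fibril chain, 4 transmembrane chains, 9 fibril-associated chains, 6 type VI chains, 3 short chains and 2 others.

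RNA was measured on 6 Affymetrix Mouse Gene 2.0 ST arrays, 1 per sample, from hair follicle stem cells of mouse skin at postnatal day 49. These cells lie in the follicle bulge and had been isolated by cell sorting as positive for CD34 and for α6-integrin. There were 3 wild-type (WT) samples and 3 samples of mice with the K14-sPLA2-IIA transgene (TG), and the comparison asked what the transgene changed in the sorted cells. The keratin 14 promoter is active in the basal layer of the epidermis and in the outer layer of the follicle, so the stem cells and their neighbours can both carry the secreted phospholipase. The labels give no strain, sex or number of animals per sample, and nothing in them says that samples of a group came from different mice, so each p-value speaks only of the spread among these arrays.

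Collagen chains assemble as trimers, and each type has its own place in skin. Fibrillar types I, III and V form the fibres of the dermis and are made mainly by fibroblasts. Type IV forms the sheet of the basement membrane, type VII the fibrils that anchor that sheet to the dermis, and type XVII, a transmembrane protein of the hemidesmosome, ties the basal keratinocyte to it from above. In hair follicle stem cells type XVII is known to be needed for their maintenance.

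Values are given as the authors deposited them. Their range is that of a log2 scale, on which a difference of 1 is a doubling, though the base is unstated. Probes differ in how brightly they read, so levels were compared between arrays and not between genes. Array medians over all features ran from 5.90 to 5.99. Pla2g2a, the mouse gene of the transgene's enzyme, read 5.75 to 6.77 in WT and 12.39 to 12.61 in TG, and was the 1 gene past an adjusted p of 0.05 (limma with Benjamini-Hochberg adjustment). Basal keratinocyte markers were bright throughout, with Krt14 between 13.80 and 14.24, while Cd34, on which the cells were sorted, ranged from 9.65 to 13.07. Markers of other cells were present too, as Krt1 of the suprabasal epidermis read 11.94 to 13.86 and the T cell gene Cd3e 7.87 to 11.37. The labels do not say how pure the sort was, and in such bulk samples fewer cells of a type and less RNA per cell cannot be told apart.

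The transgene was not accompanied by a called change in any collagen gene. Of the 44 genes 0 passed an adjusted p of 0.05 in limma, against 0.00451% of all genes, and 0 had an unadjusted p under 0.05, against 2.77% of all genes (1.93% higher in TG and 0.843% lower). The 3 TG arrays lay wholly above the 3 WT arrays in 0 of 44 (3.99% of all genes) and wholly below them in 0 of 44 (3.21% of all genes). The differences, TG minus WT, ran from -0.30 to 0.42, with 17 above 0 (38.6%, against 47.9% of all genes) and 27 below 0. With 1 array left out at a time, the number above 0 ran from 9 (without WT array 2) to 31 (without TG array 2), and it was 27 without WT array 3. None of the 44 differed by 1.5-fold or more, as 2.73% of all genes did. Their median was -0.04, and that of all genes was -0.0075. The lowest adjusted p among the collagens was 0.99996.

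This does not show that the genotypes were alike. The 95% interval of the difference lay within 1.5-fold either way for 23 of the 44 genes and within 2-fold for 35. The widest limits were -1.55 for Col8a2 and 1.73 for Col18a1.

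**Figure D1:**
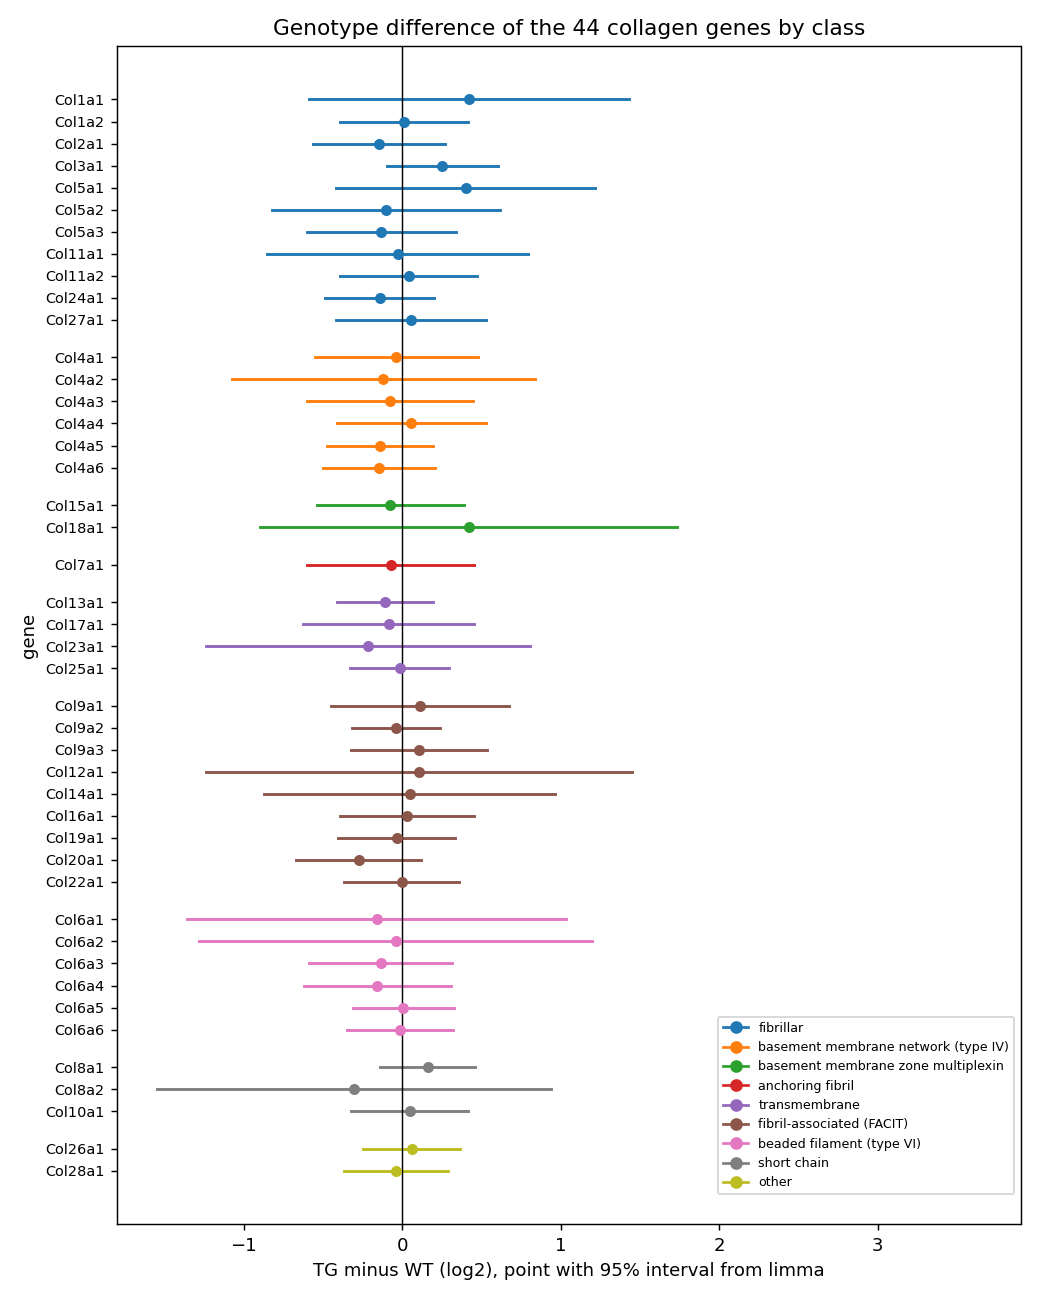
TG minus WT difference of each collagen gene (horizontal axis, log2), with its 95% interval from limma, grouped and coloured by class (3 WT and 3 TG arrays). All 44 intervals cross 0, and the intervals of Col18a1, Col12a1, Col6a1, Col6a2 and Col8a2 are among the wide ones.

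The basement membrane, anchoring and transmembrane chains, which basal keratinocytes themselves make in part, differed by less than 0 in 11 of 13 cases, where 52.1% of all genes did. This count was not steady, as it ran from 4 (without TG array 2) to 12 (without WT array 2) with 1 array left out at a time, and was 5 without WT array 3. The medians were -0.10 for type IV, -0.07 for the single anchoring gene and -0.10 for the transmembrane genes. They were 0.17 for the multiplexins, 0.01 for the fibrillar genes and -0.09 for the type VI genes. With 0 of these genes past the threshold, these medians give values and no called difference between classes. With 1 array left out at a time, the type IV median ran from -0.18 to 0.13 and the fibrillar median from -0.06 to 0.16, and the type IV median was the lower in each of these 6 fits. With array weights in limma, which gave TG array 1 the most weight, the type IV median was the higher, at 0.06 against 0.02.

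Col17a1, encoding the hemidesmosomal type XVII chain, read 10.97, 11.10 and 11.66 in WT and 11.10, 10.94 and 11.43 in TG, in the order of the arrays' numbers, as for all genes that follow. The genotypes overlapped, and in each the array numbered 3 was the highest. The difference was -0.09 ± 0.23 (SE, n = 3 per group), with a 95% interval from -0.63 to 0.45. Its adjusted p in limma, like that of every collagen and listed gene below, rounded to 1. Col7a1, encoding the chain of the anchoring fibrils, read 8.36, 8.53 and 9.03 in WT and 8.60, 8.30 and 8.81 in TG. It too was highest on the arrays numbered 3, with a difference of -0.07 ± 0.22 (SE). Without WT array 3 the differences were 0.12 for Col17a1 and 0.12 for Col7a1, so neither direction was steady.

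Among the other transmembrane chains, Col23a1, encoding type XXIII, read 9.21, 8.98 and 8.08 in WT and 8.61, 9.21 and 7.80 in TG. Here the arrays numbered 3 were the lowest of both genotypes, the reverse of Col17a1, and the difference was -0.21 ± 0.43 (SE). Col13a1, encoding type XIII, read 6.72, 6.68 and 6.88 in WT and 6.55, 6.67 and 6.73 in TG, and Col25a1, encoding type XXV, read 6.58, 6.61 and 6.55 in WT and 6.43, 6.52 and 6.73 in TG. Both stayed within narrow ranges of 0.33 and 0.30, with differences of -0.11 ± 0.13 and -0.02 ± 0.13 (SE).

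The type IV chains come from 3 pairs of genes, each pair lying head to head on 1 chromosome. Col4a1 and Col4a2, the pair of nearly all basement membranes, read 7.03, 6.71 and 7.38 (Col4a1) and 7.002, 6.80 and 7.88 (Col4a2) in WT. In TG they read 6.91, 6.82 and 7.29 (Col4a1) and 7.13, 6.46 and 7.74 (Col4a2). Both were highest on the arrays numbered 3 and lowest on those numbered 2 in each genotype, and Col4a2 moved further. Their differences between genotypes were -0.04 ± 0.22 and -0.12 ± 0.40 (SE).

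Col4a5 and Col4a6, the X-linked pair of skin basement membrane, varied less. Col4a5 read 7.19, 7.08 and 7.15 in WT and 6.98, 6.82 and 7.19 in TG, and Col4a6 read 7.99, 7.80 and 7.60 in WT and 7.53, 7.69 and 7.73 in TG. Their differences were close to each other, -0.14 ± 0.14 and -0.15 ± 0.15 (SE), and the genotypes overlapped in both genes. Col4a3 and Col4a4, best known from the kidney glomerulus, had overlapping genotypes too. Col4a3 read 5.68, 5.64 and 6.30 in WT and 5.88, 5.57 and 5.94 in TG, a difference of -0.08 ± 0.22 (SE). Col4a4 read 6.27, 6.11 and 6.44 in WT and 6.32, 6.004 and 6.66 in TG, a difference of 0.06 ± 0.20 (SE), and both were highest on the arrays numbered 3.

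The multiplexins differed from each other in spread. Col18a1, whose product carries the endostatin fragment at its end, read 8.72, 8.39 and 9.999 in WT and 9.87, 8.46 and 10.04 in TG. WT array 3 and TG arrays 1 and 3 stood more than 1 above the other 3 arrays, so the high and low values fell in both genotypes. The difference of 0.42 ± 0.55 (SE) ran from 0.10 to 0.91 when 1 array was left out at a time, and the exact two-sided permutation test gave p = 0.7 for 3 against 3 arrays, where the smallest possible p is 0.1. Col15a1 read 6.29, 6.27 and 6.51 in WT and 6.09, 6.09 and 6.66 in TG, with a difference of -0.08 ± 0.19 (SE).

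**Figure D2:**
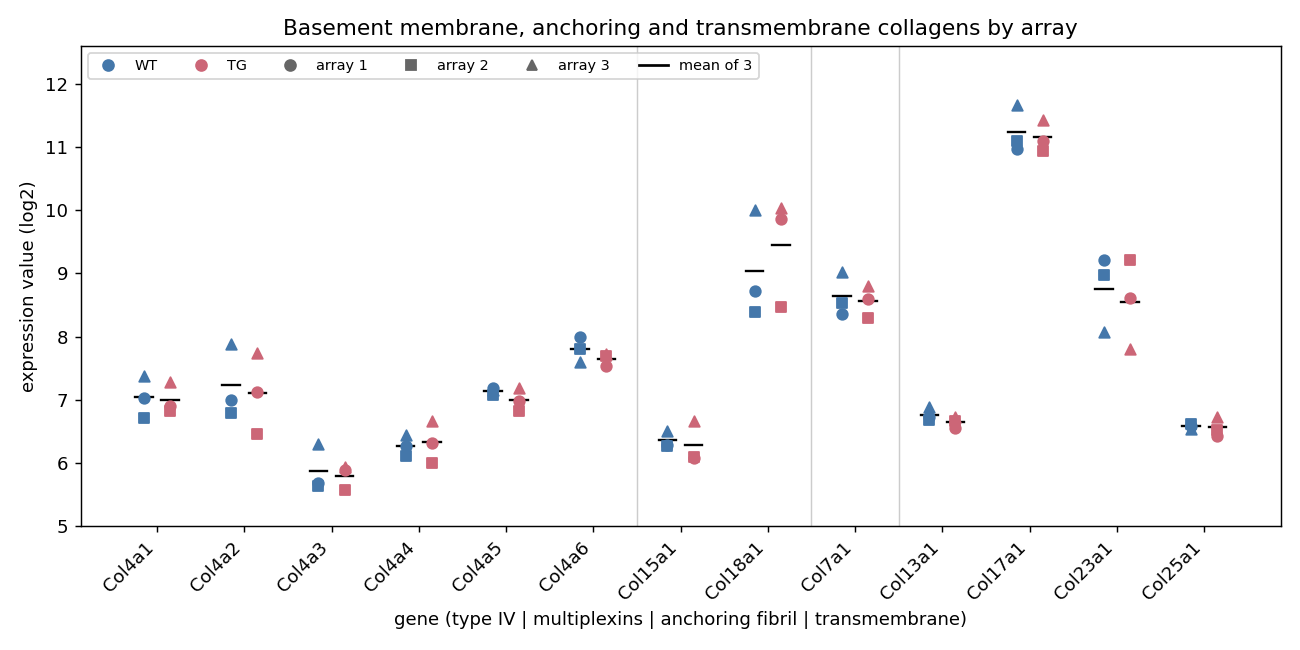
Expression value (vertical axis, log2) of the 13 basement membrane, anchoring and transmembrane collagen genes on each array, with WT in blue, TG in red, a marker shape for each array number and a bar at the mean of 3. The genotypes overlap in every gene shown, the arrays numbered 3 are high for Col18a1, Col4a2, Col17a1 and Col7a1, and they are low for Col23a1.

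The fibrillar class held the collagen with the highest difference, TG minus WT. Col1a1, encoding the major chain of type I collagen, read 7.17, 6.99 and 8.08 in WT and 7.52, 7.35 and 8.64 in TG. Each TG array lay above the WT array of the same number, by 0.35, 0.36 and 0.56, while the genotypes as groups overlapped. The same held for 4 of 44 collagens (Col1a1, Col3a1, Col18a1 and Col11a2, 9.09%), against 14.6% of all genes, and the reverse for Col13a1 and Col20a1 (4.55%, against 16.5%). The difference was 0.42 ± 0.42 (SE), with an unadjusted p of 0.354 in limma, and it ran from 0.02 to 0.76 when 1 array was left out at a time. In limma with array number as a blocking factor, its unadjusted p was 0.00967 and its adjusted p 0.538. It was the 1 of 44 collagens (2.27%) with an unadjusted p under 0.05 in that fit, where 8.45% of all genes had one (4.59% higher and 3.86% lower). Arrays of both genotypes carry the numbers 1 to 3, and the labels do not say whether a number marks a shared day or litter.

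The partner gene did not share the pattern. Col1a2, encoding the other chain of type I collagen, read 7.01, 6.99 and 7.40 in WT and 7.31, 6.98 and 7.15 in TG, a difference of 0.01 ± 0.17 (SE). Col3a1, encoding type III collagen, had the smallest unadjusted p of the 44, 0.132. It read 6.82, 6.74 and 7.02 in WT and 6.99, 7.05 and 7.29 in TG, and differed by 0.25 ± 0.15 (SE), with overlap only between WT array 3 and TG array 1. Its unadjusted p with the replicate block in limma was 0.054. Markers of dermal fibroblasts, the main source of these chains, had a median difference of 0.12, with 10 of 15 above 0 and 0 past an adjusted p of 0.05 or an unadjusted p under 0.05 in limma. With array number as a block in limma, 4 of the 15 had an unadjusted p under 0.05, all higher in TG. Among all genes 4.59% had one and were higher, and 3.86% had one and were lower. In that fit the endothelial list had 1 of 8 higher, and the dermal papilla and sheath list 2 of 10 lower. The suprabasal, pericyte, Schwann cell and haematopoietic lists had 1 lower each, and the bulge and basal keratinocyte lists 0. The part of the fibroblast markers in the fibrillar values was not tested. Other marker lists had a median difference further from 0. It was 0.29 for the bulge stem cell, with 8 of 9 above 0, and -0.34 for the suprabasal epidermis, with 8 of 8 below 0. In limma without the block, both had 0 genes past an adjusted p of 0.05 or an unadjusted p under 0.05.

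Type V collagen, which helps to start type I fibrils, gave the next highest difference of the fibrillar class. Col5a1 read 7.72, 7.11 and 7.45 in WT and 7.69, 7.24 and 8.54 in TG, and differed by 0.40 ± 0.34 (SE). TG array 3 was 1.09 above WT array 3, and the arrays numbered 1 and 2 differed by -0.03 and 0.13. Col5a2 read 6.41, 6.27 and 7.13 in WT and 6.43, 6.11 and 6.96 in TG, and differed by -0.10 ± 0.30 (SE). Col24a1 read 6.32, 6.02 and 5.97 in WT and 5.92, 6.06 and 5.90 in TG, a difference of -0.14 ± 0.14 (SE). The remaining fibrillar genes, Col2a1, Col5a3, Col11a1, Col11a2 and Col27a1, differed by -0.15 to 0.06, and Col11a1 had the widest range of these, at 1.12.

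Fibril-associated chains sit on the surface of fibrils. Col12a1, encoding type XII, read 8.16, 8.33 and 9.98 in WT and 9.15, 8.12 and 9.52 in TG. It had the second widest range of all collagens, 1.86, and a genotype difference of 0.11 ± 0.56 (SE). Col20a1 read 7.52, 7.42 and 7.81 in WT and 7.45, 7.37 and 7.10 in TG, and its difference of -0.28 ± 0.16 (SE) had an unadjusted p of 0.141. Col14a1, encoding type XIV, read 6.03, 5.58 and 6.24 in WT and 5.58, 5.54 and 6.87 in TG, with TG array 3 the highest and a difference of 0.05 ± 0.38 (SE). Col9a2 was the steadiest collagen, between 8.13 and 8.28 on all 6 arrays. The other type IX genes differed by 0.11 ± 0.24 (Col9a1) and 0.10 ± 0.18 (Col9a3, SE). Col9a1 read 5.40, 4.97 and 5.21 in WT and 5.15, 4.98 and 5.77 in TG, and Col9a3 read 6.25, 6.10 and 6.63 in WT and 6.39, 6.29 and 6.61 in TG. Col16a1, Col19a1 and Col22a1 differed by -0.04 to 0.03. Ranges under 0.5 over the 6 arrays were found for 16 of 44 collagens (36.4%, against 39.2% of all genes), and ranges of at least 1 for 12 (27.3%, against 18.6%).

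Type VI collagen forms beaded filaments around cells and next to basement membranes. Col6a1 read 8.29, 8.27 and 9.64 in WT and 9.05, 7.68 and 8.98 in TG, the widest range of the 44 genes at 1.95. Col6a2 read 7.24, 6.95 and 8.78 in WT and 7.59, 7.05 and 8.20 in TG. In both genes the array numbered 2 was the lowest of each genotype, and the differences between genotypes were -0.16 ± 0.50 and -0.04 ± 0.52 (SE). Col6a3 read 6.91, 6.64 and 6.80 in WT and 6.37, 6.99 and 6.57 in TG, and Col6a4 read 5.68, 5.83 and 5.94 in WT and 5.66, 5.32 and 5.997 in TG. Neither separated the genotypes, with differences of -0.14 ± 0.19 and -0.16 ± 0.20 (SE). Col6a5 and Col6a6 had ranges of 0.27 and 0.30 and differences of 0.01 and -0.02.

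Among the short chains, Col8a2 read 6.23, 6.21 and 8.01 in WT and 6.27, 6.20 and 7.07 in TG. All arrays but those numbered 3 lay between 6.20 and 6.27, and the difference of -0.30 ± 0.52 (SE) was the lowest of all collagens. Without WT array 3 it was 0.29. Col8a1 read 6.97, 6.98 and 7.07 in WT and 7.27, 7.19 and 7.03 in TG, a difference of 0.16 ± 0.13 (SE), with TG array 3 inside the WT range. Col10a1, a gene of hypertrophic cartilage, read 5.04, 4.64 and 4.89 in WT and 4.91, 4.77 and 5.03 in TG, a difference of 0.05 ± 0.15 (SE). Of the 2 other collagens, Col26a1 read 6.82, 6.71 and 6.55 in WT and 6.70, 6.79 and 6.75 in TG, and Col28a1 read 5.65, 5.81 and 5.45 in WT and 5.62, 5.54 and 5.62 in TG. The TG values lay inside the WT range in both, and the differences were 0.06 ± 0.13 and -0.04 ± 0.14 (SE).

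Several collagens stood apart on the arrays numbered 3, in the same direction in both genotypes. For each array number, the value was set against the mean of the other arrays of its genotype. On the arrays numbered 3, 9 of 44 collagens (20.5%) were at least 0.5 higher in both genotypes, against 5.78% of all genes. These were Col1a1, Col5a2, Col11a1, Col4a2, Col18a1, Col12a1, Col6a1, Col6a2 and Col8a2. Only Col23a1 was at least 0.5 lower in both (2.27%), against 9.15% of all genes. Without a threshold, 29 collagens were higher on both arrays numbered 3 (65.9%, against 31.4% of all genes) and 7 were lower on both (15.9%, against 43.9%). These counts describe arrays that had been seen to stand apart and carry no test.

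The sizes differed by gene and by genotype. Col8a2 was higher on array 3 by 1.79 in WT and 0.83 in TG, Col12a1 by 1.74 and 0.89, Col6a2 by 1.69 and 0.88, and Col18a1 by 1.44 and 0.87. The order was turned for Col1a1, with 1.002 in WT and 1.21 in TG, and for Col11a1, with 0.63 and 1.09. Col23a1 was lower by -1.02 in WT and -1.11 in TG. Just short of 0.5 in TG were Col17a1, with 0.62 in WT and 0.41 in TG, Col7a1, with 0.58 and 0.36, and Col4a1, with 0.50 and 0.43, while Col6a1, with 1.36 and 0.62, was the least of the 9 in TG.

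The fibrillar class held 3 of the 9, type VI 2, and the type IV, multiplexin, fibril-associated and short-chain classes 1 each. Over all 44 collagens the median on array 3 was 0.21 in WT and 0.27 in TG, where all genes had -0.07 and -0.06. The other array numbers gave a partly mirrored picture, as 8 collagens (18.2%, against 2.72% of all genes) were at least 0.5 lower on array 2 in both genotypes, 7 of them among the 9. Deviations within a genotype sum to 0, so these counts are not separate evidence. On the arrays numbered 1, 0 collagens were at least 0.5 higher (1.03% of all genes) or lower (0.618%) in both genotypes. On those numbered 2, 0 were higher (4.31%). Some of the 9 went opposite ways on the arrays numbered 1. Col18a1 was at -0.47 in WT and 0.62 in TG, Col12a1 at -0.9996 and 0.33, and Col6a1 at -0.66 and 0.71. Others of the 9, such as Col1a1 (-0.36 and -0.48) and Col8a2 (-0.88 and -0.37), were lower in both.

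**Figure D3:**
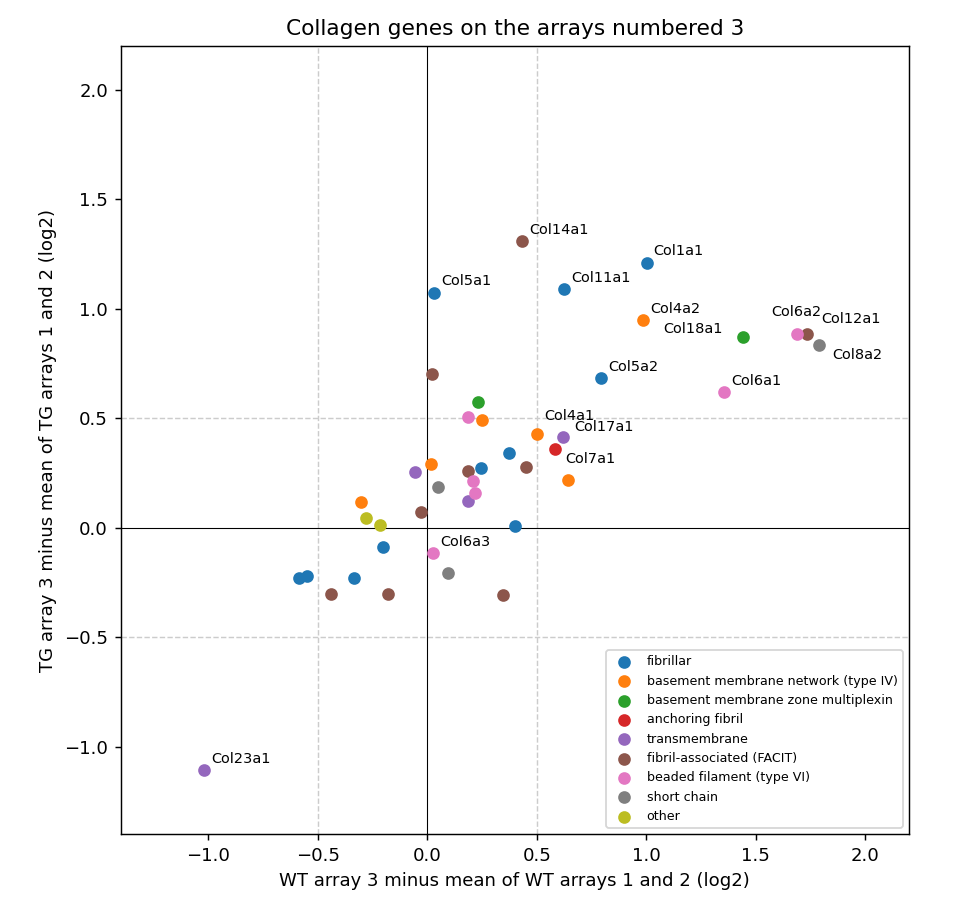
Value on the array numbered 3 minus the mean of the other 2 arrays of the same genotype (log2), WT on the horizontal and TG on the vertical axis, 1 point per collagen gene, coloured by class, with dashed lines at 0.5 and -0.5. The 9 genes at the upper right are at least 0.5 higher on both arrays, and Col23a1 stands alone at the lower left.

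Markers of the sorted cells and of other cells moved on the same arrays. Of 9 bulge stem cell markers 5 were at least 0.5 higher on array 3 in both genotypes and 0 lower. The list mean read 9.95 to 11.58 over the WT arrays and 9.98 to 11.20 over the TG arrays. Cd34 read 9.78, 9.89 and 13.07 in WT and 11.57, 9.65 and 12.42 in TG, so that the arrays with high Cd34 were also those with high Col18a1 and Col12a1. All 8 suprabasal markers (list mean 10.41 to 12.38 in WT and 10.11 to 12.24 in TG) and 6 of 7 haematopoietic markers (6.93 to 8.09 and 6.63 to 8.38) were at least 0.5 lower there. Their part in the collagen pattern was not tested.

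Of 15 dermal fibroblast markers 3 were at least 0.5 higher on array 3 in both genotypes and 1 was lower, and the list median was -0.20 in WT and -0.18 in TG. The list mean ran from 6.42 to 6.65 in WT and from 6.61 to 6.80 in TG. The 3 higher genes were Fbln1, Fbln2 and Fstl1, and the lower one was Dcn, all chosen after their values were seen. Of 10 dermal papilla and sheath markers (list mean 6.20 to 6.59 in WT and 5.94 to 6.48 in TG) 2 were higher, and of 8 endothelial markers (5.44 to 5.97 and 5.58 to 6.05) 3 were. Pericyte markers (7.07 to 7.19 and 6.96 to 7.13) had 1 of 7 higher and 1 lower, and the 4 Schwann cell markers (5.51 to 5.95 and 5.61 to 5.88) had 0 higher and 1 lower. Of 6 basal keratinocyte markers (11.41 to 11.62 and 11.45 to 11.53) 2 were higher and 0 lower. No detection calls were used, so no marker is called absent.

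Chains of 1 collagen type did not always vary together. In type VI, Col6a1 and Col6a2 were higher on array 3 than the mean of the other arrays in both genotypes. TG array 1 of Col6a1, at 9.05, was still above its TG array 3, at 8.98. Col6a3 differed on array 3 by 0.03 in WT and -0.12 in TG. In type I, Col1a1 was higher by 1.002 and 1.21, whereas Col1a2 was higher by 0.40 in WT and 0.0074 in TG. For type VIII the contrast was with Col8a1, at 0.10 and -0.21. Type IV was closer, with 0.50 and 0.43 for Col4a1 beside 0.98 and 0.95 for Col4a2. A fainter second feature of Col6a1 showed the same arrays high, at 7.14 on WT array 3, 6.88 on TG array 3 and 6.76 on TG array 1 against 5.58 to 5.93 on the others. The second feature of Col1a2 ranged from 4.29 to 4.80. The genotype difference depended on the feature. For Col6a1 it was 0.09 in the second feature and -0.16 in the brightest, and for Col1a2 -0.08 and 0.01. For Col5a1 both were above 0, at 0.14 and 0.40.

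**Figure D4:**
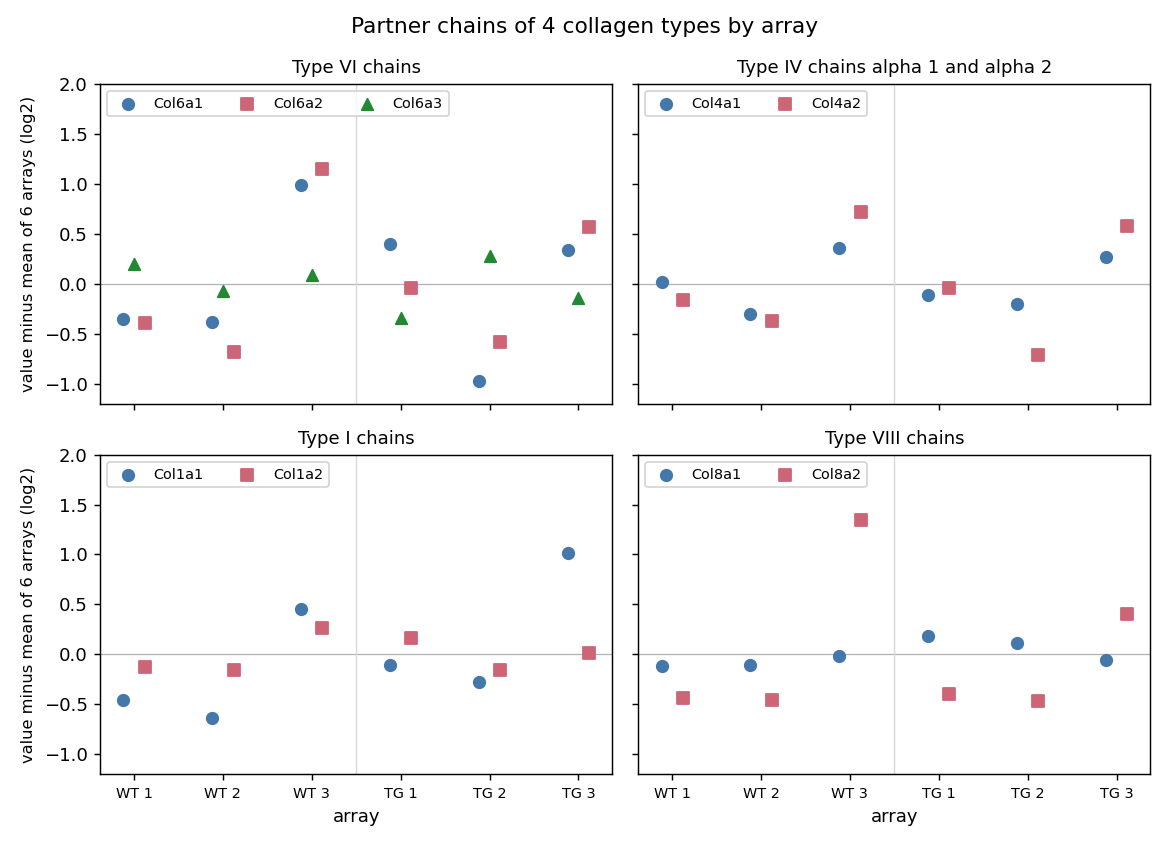
Value of each chain minus its own mean over the 6 arrays (vertical axis, log2) on each array (horizontal axis), for type VI, type IV, type I and type VIII chains. Col6a1 and Col6a2 are high on WT array 3 and Col6a3 is not. Col4a1 and Col4a2 are both high on the arrays numbered 3 and low on those numbered 2. Col1a2 and Col8a1 vary less than Col1a1 and Col8a2.

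The start regions of 5 of these genes are given to set genes that were higher on the arrays numbered 3 (Col18a1, Col6a1 and Col6a2) beside Col17a1 and the opposite case Col23a1. Each is the 250 bases before the outermost RefSeq start in GRCm38.p6, 5′ to 3′ on the gene's strand, with capitals marking matches, on either strand, to the TATA box TATAAA, the GC box GGGCGG or the AP-1 element TGANTCA.
Col17a1, chr19:47692043-47692292, minus strand: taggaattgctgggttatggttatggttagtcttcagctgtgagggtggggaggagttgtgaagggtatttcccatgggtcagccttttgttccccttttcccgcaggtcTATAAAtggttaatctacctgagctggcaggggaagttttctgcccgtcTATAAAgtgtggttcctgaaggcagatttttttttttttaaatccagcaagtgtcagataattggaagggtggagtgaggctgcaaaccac
Col18a1, chr10:77166531-77166780, minus strand: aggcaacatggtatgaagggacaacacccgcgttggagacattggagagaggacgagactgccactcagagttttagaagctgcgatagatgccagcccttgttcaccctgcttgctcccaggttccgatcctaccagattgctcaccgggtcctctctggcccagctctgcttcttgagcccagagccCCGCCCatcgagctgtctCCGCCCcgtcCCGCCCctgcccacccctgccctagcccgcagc
Col6a1, chr10:76726045-76726294, minus strand: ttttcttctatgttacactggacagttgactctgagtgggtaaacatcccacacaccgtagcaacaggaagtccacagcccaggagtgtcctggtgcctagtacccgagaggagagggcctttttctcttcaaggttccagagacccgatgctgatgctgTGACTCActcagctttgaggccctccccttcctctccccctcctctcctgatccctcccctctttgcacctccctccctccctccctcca
Col6a2, chr10:76623631-76623880, minus strand: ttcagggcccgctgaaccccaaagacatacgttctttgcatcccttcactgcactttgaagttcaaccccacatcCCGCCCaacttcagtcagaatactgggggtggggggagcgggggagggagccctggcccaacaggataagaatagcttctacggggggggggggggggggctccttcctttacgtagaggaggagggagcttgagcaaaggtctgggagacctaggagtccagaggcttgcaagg
Col23a1, chr11:51289670-51289919, plus strand: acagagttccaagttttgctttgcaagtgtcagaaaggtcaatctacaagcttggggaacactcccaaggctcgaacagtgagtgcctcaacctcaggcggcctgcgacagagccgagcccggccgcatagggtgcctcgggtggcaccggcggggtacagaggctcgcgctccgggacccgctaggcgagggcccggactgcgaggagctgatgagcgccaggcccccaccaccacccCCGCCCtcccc
Col17a1 held 2 TATA boxes and no GC box, and Col18a1 3 GC boxes and no TATA box. Col6a1 held 1 AP-1 element, the binding sequence of the Jun and Fos factors, and Col6a2 and Col23a1 held 1 GC box each. RefSeq windows were found for 35 of the 44 collagens, 38 in all. The GC box was in 57.9% of them against 32.7% of 32851 windows of the same length, the TATA box in 13.2% against 12.4%, and the AP-1 element in 2.63%, the 1 window of Col6a1, against 6.75%. A match is a stretch of letters and not a shown binding site.

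Genes that build, bind and break down collagen were read from the same fit. In the folding and modification list, which covers prolyl and lysyl hydroxylases and chaperones, 19 of 21 genes were measured with 1 symbol and 0 passed an adjusted p of 0.05. Their median difference was 0.00495, with 10 above 0. Plod2, a lysyl hydroxylase gene, differed by 0.55 ± 0.35 (SE), Ppib, encoding a prolyl isomerase, by 0.26 ± 0.16 and Colgalt2, a collagen galactosyltransferase gene, by -0.24 ± 0.17. The 3 TG arrays of Ppib lay above its 3 WT arrays, as for 1 of the 19 genes (3.99% of all genes), and 0 of 19 lay wholly below (3.21%). The genes named from these lists had the smallest unadjusted p of their list, so their separation is no separate result.

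Of 15 processing and crosslinking genes 0 passed, with a median of -0.06 and 7 above 0. Bmp1, encoding a procollagen C-proteinase, differed by 0.34 ± 0.175 (SE), and the genes of its enhancers by -0.78 ± 0.49 (Pcolce2) and -0.21 ± 0.14 (Pcolce). The TG arrays of Bmp1 all lay above its WT arrays, as for 1 of the 15 genes (3.99% of all genes), and 0 of 15 lay wholly below (3.21%). Of 10 receptor genes 0 passed, with a median of -0.14 and 3 above 0. Adgrg1, encoding an adhesion receptor for type III collagen, differed by 0.30 ± 0.17, the inhibitory receptor gene Lair1 by -0.17 ± 0.12 and the discoidin receptor gene Ddr1 by -0.14 ± 0.14 (SE). All TG arrays lay above the WT arrays for Adgrg1 and below them for Lair1, so 1 of 10 receptor genes separated in each direction (3.99% and 3.21% of all genes).

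The partners of the collagens at the basement membrane gave 0 of 14 genes past the threshold, with a median of 0.02. Lama3, encoding a chain of an epidermal laminin, differed by -0.29 ± 0.14 (SE), and its 3 TG arrays lay below the 3 WT arrays. This held for 1 of the 14 genes (3.21% of all genes), and 0 of 14 lay wholly above (3.99%). Hspg2, encoding perlecan, differed by 0.48 ± 0.40 and Lamc1 by 0.14 ± 0.13. The 6 measured hemidesmosome genes had a median of -0.07 and 0 past the threshold, with Itga6 at -0.07 ± 0.175 (SE), Plec, encoding plectin, at -0.11 ± 0.14 and Dst at -0.13 ± 0.18.

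The breakdown and shedding list had 0 of 11 genes past the adjusted threshold. In limma 1 of the 11 had an unadjusted p under 0.05 and was lower in TG, as 0.843% of all genes were. This was Mmp9, encoding a gelatinase, which differed by -0.59 ± 0.22 (SE), with an unadjusted p of 0.0326 in limma and no call after adjustment. Its 3 TG arrays, at 6.52, 6.75 and 6.19, lay below its 3 WT arrays, at 7.02, 7.42 and 6.79. The collagenase genes Mmp8 and Mmp13 differed by 0.24 ± 0.12 and -0.17 ± 0.12 (SE), with all TG arrays above the WT arrays for Mmp8 and all below for Mmp13. In the whole list 1 of 11 genes lay wholly above (3.99% of all genes) and 2 wholly below (3.21%). Mmp9, Mmp8 and Mmp13 were named for the smallest unadjusted p of the list, so their separation is no separate result. Adam9, Adam10 and Adam17, whose products can shed the type XVII ectodomain and which were named for that role, differed by 0.13 ± 0.22, -0.10 ± 0.19 and -0.09 ± 0.19 (SE).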

How the data were processed

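RNA of 6 samples, 3 WT and 3 TG, was measured on 1 array each. The deposited values were used as given and are on a log2 scale, as read from their range; their base, summarisation and scaling by the authors are not stated in the labels. Transcriptome Analysis Console and Expression Console 1.4.1 of Affymetrix appear, without a stated use, in the submitters' processing notes. A gene was its brightest feature among those with 1 symbol, by the mean of the 6 arrays, which left 22180 genes.

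Genotypes were compared with limma 3.58.1 in R 4.3.3 over all genes, with Benjamini-Hochberg adjustment, after a test on simulated data. Members and lists were chosen with earlier results of these data known. All 44 collagens are accounted for. Given in full were those of the basement membrane, anchoring and transmembrane classes and, of each other class, the 3 with the smallest unadjusted p and the 2 with the widest range. Up to 3 genes of each pathway list were named by unadjusted p. Other named genes (partner chains, shedding enzymes, cell markers) were chosen with their values known. Listed genes without a 1-symbol feature were not analysed here.

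Array numbers were checked as pairs. Deviations from the group means, over all genes, correlated at r = 0.20, 0.67 and 0.74 for arrays numbered 1, 2 and 3, all above the limit of 0.1. WT array 1 and TG array 2 also correlated at 0.50, and WT array 2 and TG array 1 at 0.17, so the arrays numbered 1 do not stand out as a pair. Deviations within a genotype sum to 0, which ties these correlations to each other. The pairing rests on this check alone, and the block was an alternative.

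The number of arrays limits the precision, and no detection values were used. Promoter windows came from RefSeq, GRCm38.p6.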

Additional observations from a re-analysis of the deposited data

How the results depend on the processing

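In no alternative did a collagen pass an adjusted p of 0.05 in limma. With the replicate block, which treats arrays of equal number as pairs, 1 collagen (Col1a1) had an unadjusted p under 0.05. With array weights 3 did (Col18a1, Col4a6 and Col8a1), as did 14.1% of all genes. In limma without block or weights 0 collagens did. The weights were 1.31, 1.95 and 0.29 for WT arrays 1, 2 and 3, and 4.23, 0.96 and 0.33 for the TG arrays. The weighted TG values therefore rested mostly on TG array 1. Over all genes, the 1 call (Pla2g2a) became 0 without both arrays numbered 2 or without both numbered 3, and ran from 0 to 1 with 1 array left out.

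Collagens whose TG arrays all lay above WT numbered 2 without both arrays numbered 1 (10.2% of all genes), 4 without both numbered 3 (17.1%) and 1 with median centring (5.19%). Those wholly below numbered 1, 3 and 10 without both arrays numbered 1, 2 and 3 (8.81%, 11.2% and 20.6% of all genes), and 1 with quantile normalization (3.11%). With 1 array left out these counts ran from 0 to 4 and from 0 to 7. The 4 above came without WT array 3 (9.74% of all genes) and the 7 below without TG array 3 (9.51%). Fewer arrays make such separation commoner by construction.

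Differences above 0 numbered 9 to 31 of 44 with 1 array left out, where the share of all genes ran from 45.7% to 52.1%. They numbered 10 of the 27 collagens above the median level, against 54.2% of all genes above that level. With 1 array left out the class medians ran from -0.064 to 0.16 (fibrillar), -0.18 to 0.13 (type IV), -0.07 to 0.47 (multiplexins), -0.21 to 0.12 (anchoring), -0.13 to -0.04 (transmembrane), -0.09 to 0.06 (fibril-associated), -0.21 to 0.066 (type VI), -0.06 to 0.19 (short chain) and -0.07 to 0.06 (other), and over all collagens from -0.10 to 0.10. The type VI median was 0.039 with array weights. The cause was not tested.

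At thresholds chosen after seeing the data, collagens higher on the arrays numbered 3 in both genotypes numbered 14 at 0.3 and 1 at 1. Those lower numbered 2 at 0.3. The shares of all genes at these thresholds are not given, so these counts do not show whether collagens differed from other genes.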
